A study of Mus musculus with 12 samples.

Results

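The dual-specificity phosphatase (DUSP) genes described here encode the MAP kinase phosphatases, enzymes that remove the phosphates from the threonine and tyrosine of the activation loop of MAP kinases and so switch these kinases off. The members were taken by gene symbol, and all 9 of them (Dusp1, Dusp2, Dusp4, Dusp5, Dusp6, Dusp7, Dusp8, Dusp10 and Dusp16) were present among the 23997 symbols measured. RNA-seq was performed on bone marrow-derived macrophages (BMDMs) in 12 libraries, 3 in each of 4 groups: untreated WT, untreated Pim1-/-, WT treated with lipopolysaccharide (LPS, a bacterial ligand of Toll-like receptor 4) at 100 ng/ml for 4 h, and Pim1-/- treated identically. Both genotypes were C57BL/6. The Pim1-/- line was made by CRISPR/Cas9 and lacks exons I to V of Pim1, which encodes a serine/threonine kinase, in every cell of the animal. For all 4 groups the bone marrow came from male mice aged 8 to 10 weeks, was kept in culture for 1 day, and its non-adherent cells were grown for 7 days in macrophage colony-stimulating factor at 10 ng/ml. The labels number the replicates of a group without naming separate mice or cultures, so the p-values measure only the spread between these libraries, which may be technical.

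In macrophages, LPS activates the ERK, JNK and p38 MAP kinases, and several phosphatase genes are transcribed within hours and act as negative feedback on the same kinases. The family is usually divided by location and substrate. DUSP1, DUSP2, DUSP4 and DUSP5 are nuclear and inducible, DUSP6 and DUSP7 are cytoplasmic and prefer ERK, and DUSP8, DUSP10 and DUSP16 act mainly on JNK and p38. DUSP1 is the best known of them in macrophages, where it limits the cytokine output that follows LPS.

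Values are FPKM, fragments scaled to transcript length and to the library, which allow levels to be compared between genes. Differences were tested on log2(FPKM + 1) with limma, and a gene was called when it passed 3 limits at once, a difference over 2-fold, a p under 0.05 and a Benjamini-Hochberg false discovery rate (FDR) under 0.1. Adding 1 shrinks the fold change of weakly expressed genes, so ratios of mean FPKM are given as well. Of the 9 members, 7 reached 1 FPKM in at least 3 libraries and were tested together with 10574 other genes. Dusp5 did so only through its LPS-treated libraries, and Dusp8 and Dusp10 did not. From the smallest steps between values, 1 FPKM was estimated to stand for 37.9 to 46.1 fragments per kilobase in untreated and 21 to 32.2 in LPS-treated libraries, which put Dusp8 at 13 to 23 and Dusp5 at 17 to 45 fragments in untreated cells and Dusp2 at 9824 to 11189 in LPS-treated WT cells. Pim1 itself was lower in the libraries labelled Pim1-/-, with 8.74 ± 0.752 against 22.9 ± 1.80 FPKM in untreated cells (mean ± SD, n = 3, as in all groups) and 219 ± 15.6 against 645 ± 17.8 FPKM after LPS. These gene-level values do not separate the deleted exons from the rest of the gene.

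Macrophage markers were present in all groups, but their summed level was lower in Pim1-/- cells, at 14412 to 15331 against 27946 to 29997 FPKM untreated and 15948 to 17813 against 30856 to 31355 FPKM after LPS. Of these 10 markers, 4 were lower and 0 higher without treatment, and 3 lower and 0 higher after LPS. Over all genes tested, 3.37% were called lower and 4.40% higher without treatment, and 5.15% lower and 3.51% higher after LPS. The summed level of 20 cell cycle genes was higher in Pim1-/- cells, at 1057 to 1147 against 162 to 180 FPKM untreated and 781 to 862 against 357 to 361 FPKM after LPS, with 20 and 19 genes called higher. The rise of the WT sum with LPS does not describe most of these genes. With LPS in WT cells 1 was called higher and 7 lower, with a median log2 change of −0.60. Defining markers of T and NK cells (Cd3e, Cd3g, Cd8a, Ncr1 and Gzma), B cells (Pax5), mast cells (Mcpt4, Tpsb2 and Fcer1a) and erythroid cells (Hbb-bs and Hba-a1) were listed at 0 in all libraries, while other genes of those lists were detected. The summed T and NK list was at 4.93 to 5.57 FPKM in WT and 0.953 to 1.07 in Pim1-/- cells untreated, and at 17.7 to 18.5 and 6.38 to 7.25 FPKM after LPS, with 1 and 2 of 2 tested genes called lower. The dendritic cell list was at 438 to 490 and 119 to 134 FPKM untreated and at 850 to 896 and 321 to 344 FPKM after LPS. Of its 5 tested genes, 4 were called lower untreated and 3 after LPS. This list includes the antigen presentation genes H2-Aa, H2-Ab1, H2-Eb1 and Cd74. In each group 5 of its 12 genes had a mean of at least 1 FPKM, so the sum does not measure a share of dendritic cells. The neutrophil list was at 1.64 to 1.99 and 3.28 to 4.29 FPKM untreated and at 6.07 to 8.31 and 3.65 to 6.16 FPKM after LPS, with Retnlg at 0. Of its 2 tested genes, 0 were called without treatment and 1 was called lower after LPS. In no library did the stromal list exceed 5.33, the B cell list 1.72, the erythroid list 0.393 or the mast cell list 0.208 FPKM. The part of these shifts in the genotype differences below was not tested, and in bulk RNA a change in the share of cells cannot be told apart from a change in RNA per cell.

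In untreated WT cells the cytoplasmic Dusp7 accounted for most of the family's RNA, and after LPS it was overtaken by Dusp2, Dusp1 and Dusp16. The summed level of the 9 genes was 51.1 ± 0.357 FPKM in untreated WT and 58.5 ± 1.15 FPKM in untreated Pim1-/- cells. After LPS the WT sum was 567 ± 15.1 FPKM and the Pim1-/- sum 179 ± 3.99 FPKM, and the libraries of these groups did not overlap. Dusp7 made up 56.3% ± 0.639 of the sum in untreated WT and 30.4% ± 1.5 in untreated Pim1-/- cells. Dusp2 made up 57.4% ± 1.18 in WT and 55.3% ± 0.276 in Pim1-/- cells after LPS. After LPS the shares in WT and Pim1-/- cells were 29.4% ± 0.747 against 12.8% ± 0.387 for Dusp1 and 1.32% ± 0.114 against 15.4% ± 0.813 for Dusp4.

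**Figure D1:**
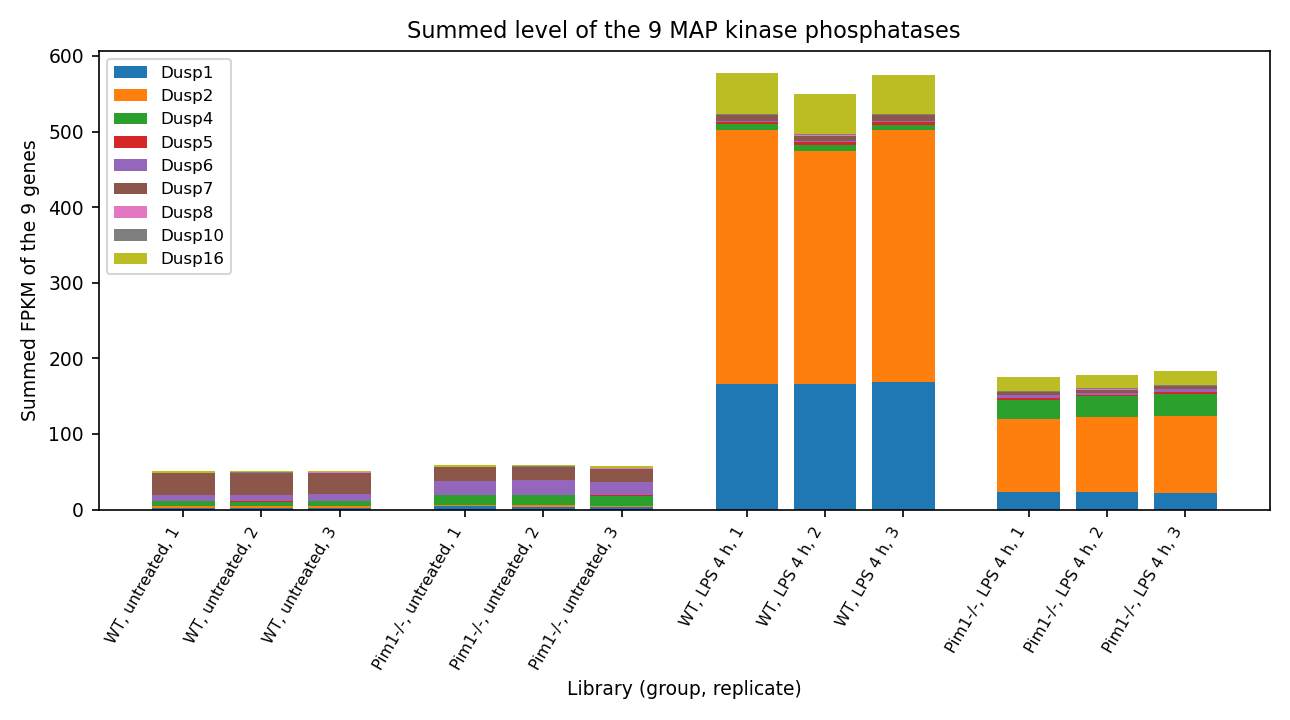
Stacked bars give the summed FPKM of the 9 MAP kinase phosphatase genes in each of the 12 libraries, with colours for the genes. The 3 LPS-treated WT libraries reached 549.9 to 577.7 FPKM, mostly Dusp2 and Dusp1, and the 3 LPS-treated Pim1-/- libraries 174.8 to 182.7 FPKM.

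Ranked by mean FPKM, the order in untreated WT cells was Dusp7, Dusp6, Dusp4, Dusp2, Dusp1, Dusp16, Dusp10, Dusp5 and Dusp8, and only the libraries of Dusp2 and Dusp1 overlapped between neighbours. In untreated Pim1-/- cells Dusp6 stood level with Dusp7, with overlapping libraries, and was followed by Dusp4, Dusp1, Dusp16, Dusp2, Dusp10, Dusp5 and Dusp8, none of which overlapped with the next. LPS moved Dusp2, Dusp1 and Dusp16 to the top in WT cells, ahead of Dusp4 and Dusp7, which overlapped, then Dusp5, and then Dusp6, Dusp8 and Dusp10, which overlapped in turn. In LPS-treated Pim1-/- cells Dusp4 took the second place behind Dusp2 and was followed by Dusp1, Dusp16, Dusp7, Dusp6, Dusp5, Dusp8 and Dusp10, of which only the last pair overlapped.

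**Figure D2:**
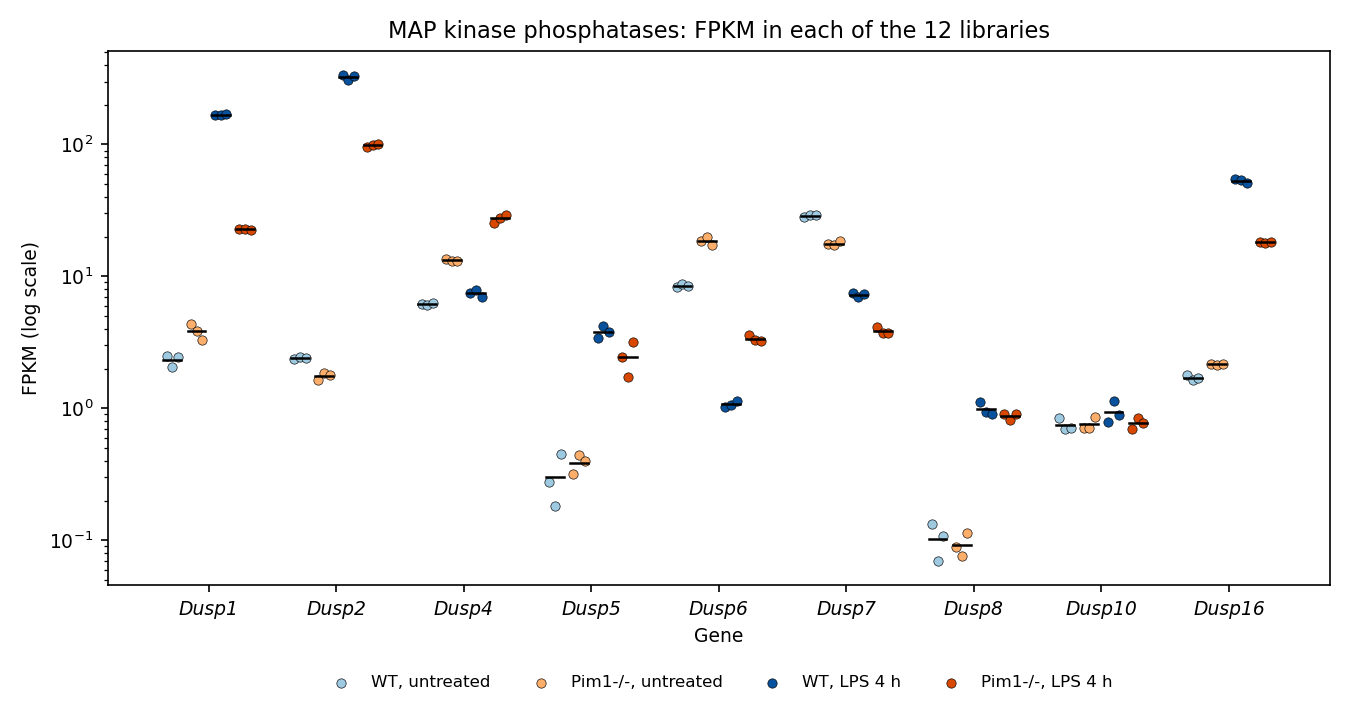
Points give the FPKM (log scale) of each MAP kinase phosphatase gene in the 3 libraries of each group, and bars give the group mean. After LPS the WT libraries lay above the Pim1-/- libraries for Dusp1, Dusp2, Dusp5, Dusp7 and Dusp16, with no overlap. They lay below them for Dusp4 and Dusp6, also with no overlap.

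Among the nuclear, inducible genes, Dusp1 and Dusp2 had the largest folds with LPS in WT cells. Dusp1, the phosphatase with the most established role in LPS-treated macrophages, was at 2.48, 2.05 and 2.44 FPKM in the untreated WT libraries and at 4.38, 3.86 and 3.31 FPKM in the untreated Pim1-/- libraries. After LPS it reached 166, 166 and 169 FPKM in WT but 22.9, 22.8 and 22.5 FPKM in Pim1-/- cells. The genotypes did not overlap in either condition, and their order turned over, with Pim1-/- cells higher before LPS and lower after it. The mean rose 71.7-fold with LPS in WT and 5.91-fold in Pim1-/- cells, and after LPS it was 7.33-fold higher in WT. On the log2 scale the genotype difference after LPS was −2.82 ± 0.07 (SE, adjusted p = 2.4e-14, limma), the 15th lowest of the 10581 genes tested. Without treatment the difference was 0.54 ± 0.07 (adjusted p = 3.9e-06), less than 2-fold. The LPS response itself was smaller in Pim1-/- cells by 3.36 ± 0.10 log2 units (95% interval −3.57 to −3.15, adjusted p = 1.2e-12), and of the genes tested only 3 had a lower value. Dusp1, which GENCODE M21 draws from 26505590 to 26562128 on chromosome 17, overlaps Ergic1 on the opposite strand. The RefSeq promoter window of Dusp1, at 26508473 to 26508722, lies within this span. The libraries were stranded, but whether the counting used the strand is not given in the sources used here.

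Promoter sequences are shown for Dusp1, Dusp2 and Dusp16, the members whose LPS response was called different between the genotypes, and for Dusp5 and Dusp8, whose windows held further matches. RefSeq (GRCm38.p6) gave the 250 bases before the start of 8 of the 9 members, and Dusp4 had no entry. Both strands were searched for the cAMP response element (CRE) TGACGTCA, its 5-base core TGACG, the AP-1 motif TGANTCA, the NF-kB motif and the CArG box, and matches are in capitals. A CRE reads the same on both strands and so holds the core on each. The windows lie at chr17:26508473-26508722 (minus strand), chr2:127335909-127336158 (plus strand), chr6:134792629-134792878 (minus strand), chr19:53528895-53529144 (plus strand) and chr7:142095285-142095534 (minus strand) and are written 5′ to 3′ on the strand of the gene.
Dusp1: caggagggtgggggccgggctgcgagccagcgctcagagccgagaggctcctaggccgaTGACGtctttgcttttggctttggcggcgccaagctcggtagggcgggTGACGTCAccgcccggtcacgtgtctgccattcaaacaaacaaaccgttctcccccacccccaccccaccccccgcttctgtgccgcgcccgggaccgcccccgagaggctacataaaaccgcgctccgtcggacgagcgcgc
Dusp2: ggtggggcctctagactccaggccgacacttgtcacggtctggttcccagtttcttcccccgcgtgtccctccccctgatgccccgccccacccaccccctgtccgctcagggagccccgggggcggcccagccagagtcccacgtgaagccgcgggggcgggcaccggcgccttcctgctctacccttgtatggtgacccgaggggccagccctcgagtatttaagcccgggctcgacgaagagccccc
Dusp16: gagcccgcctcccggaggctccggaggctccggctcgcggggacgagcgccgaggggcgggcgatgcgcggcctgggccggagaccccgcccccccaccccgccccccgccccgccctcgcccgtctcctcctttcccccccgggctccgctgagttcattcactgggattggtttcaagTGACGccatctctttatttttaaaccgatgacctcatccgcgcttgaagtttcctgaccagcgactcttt
Dusp5: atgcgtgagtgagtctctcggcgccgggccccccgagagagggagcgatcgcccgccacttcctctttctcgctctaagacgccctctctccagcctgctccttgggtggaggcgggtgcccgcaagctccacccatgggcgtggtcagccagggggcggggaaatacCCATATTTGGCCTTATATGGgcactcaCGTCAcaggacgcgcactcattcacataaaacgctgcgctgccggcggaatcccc
Dusp8: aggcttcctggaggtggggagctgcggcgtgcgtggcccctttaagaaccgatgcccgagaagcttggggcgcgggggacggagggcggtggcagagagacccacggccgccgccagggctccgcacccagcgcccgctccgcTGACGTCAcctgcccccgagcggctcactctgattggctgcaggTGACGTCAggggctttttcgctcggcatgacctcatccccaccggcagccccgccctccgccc

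The Dusp1 window held 1 CRE, from −143 to −136 counted from the start, and a separate core at −191 to −187. The Dusp8 window held 2 CREs, from −107 to −100 and from −63 to −56. A full CRE was present in 1.55% of all 32851 promoter windows of this length and the core in 17.8%. Dusp16 had 1 core, and Dusp5 had 1 core and 2 CArG boxes, a motif in 1.47% of windows. No match was found in the windows of Dusp2, Dusp6, Dusp7 and Dusp10, and none of the 8 windows held an AP-1 (6.75% of all windows) or NF-kB (7.25%) match. These letters are a description of the windows.

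Dusp2, a nuclear phosphatase of haematopoietic cells, had the highest level of the family after LPS. It was at 2.36, 2.47 and 2.39 FPKM in untreated WT and 1.65, 1.87 and 1.78 FPKM in untreated Pim1-/- libraries. After LPS it reached 336, 308 and 333 FPKM in WT and 96.5, 99.1 and 101 FPKM in Pim1-/- libraries. Pim1-/- cells were therefore lower in both conditions, with no overlap. LPS raised the mean 135-fold in WT and 55.9-fold in Pim1-/- cells, and the mean was 3.30-fold higher in WT after LPS. The log2 difference between genotypes was −1.71 ± 0.05 after LPS (adjusted p = 6.6e-14) and −0.30 ± 0.05 without treatment (adjusted p = 2.6e-05). The difference between the LPS responses was −1.41 ± 0.07 (adjusted p = 1.2e-10).

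Dusp4, a nuclear phosphatase for ERK and JNK, ran the opposite way between the genotypes. Its level was 6.22, 6.07 and 6.25 FPKM in untreated WT and 13.5, 13.2 and 13.1 FPKM in untreated Pim1-/- libraries. After LPS it was 7.47, 7.92 and 6.98 FPKM in WT and 25.4, 27.9 and 29.4 FPKM in Pim1-/- libraries. All Pim1-/- libraries lay above all WT libraries in both conditions. After LPS the mean was 3.69-fold higher in Pim1-/- cells, with a log2 difference of 1.75 ± 0.06 (adjusted p = 4.2e-13). The untreated difference of 0.99 ± 0.06 (adjusted p = 3.4e-10) lay just under the 2-fold line, while the ratio of mean FPKM was 2.14. With LPS the mean FPKM rose 2.08-fold in Pim1-/- and 1.21-fold in WT cells. In response to LPS, Dusp4 changed by 1.00 ± 0.06 log2 units in Pim1-/- cells (adjusted p = 8.6e-11), on the 2-fold line, and by 0.23 ± 0.06 in WT cells (adjusted p = 9.9e-04), which was not called. The call in Pim1-/- cells was lost without replicate 2 (1.00) or 3 (0.99) of the untreated or replicate 2 (0.99) or 3 (0.95) of the LPS-treated Pim1-/- libraries, and the direction in WT cells turned to −0.50 when each library was scaled to the same sum. The difference between the responses, 0.77 ± 0.08 (adjusted p = 7.2e-07), was under 2-fold.

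Dusp5, a nuclear phosphatase specific for ERK, was low without treatment. It was at 0.275, 0.181 and 0.448 FPKM in untreated WT and 0.317, 0.440 and 0.400 FPKM in untreated Pim1-/- libraries, and the genotypes overlapped. After LPS it was at 3.42, 4.22 and 3.80 FPKM in WT and 2.47, 1.72 and 3.18 FPKM in Pim1-/- libraries, which did not overlap. The mean rose 12.6-fold in WT and 6.37-fold in Pim1-/- cells, with log2 changes of 1.89 ± 0.12 (adjusted p = 3.4e-10) and 1.30 ± 0.12 (adjusted p = 5.2e-08). Between the genotypes the difference was −0.50 ± 0.12 after LPS (adjusted p = 0.00151) and 0.09 ± 0.12 without treatment (adjusted p = 0.49, 95% interval −0.16 to 0.35). The difference between the responses was −0.59 ± 0.17 (adjusted p = 0.00703), under 2-fold.

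The cytoplasmic, ERK-directed genes fell with LPS in both genotypes but differed in opposite directions between them. Dusp6, whose transcription is itself raised by ERK activity, was at 8.36, 8.81 and 8.41 FPKM in untreated WT and 18.4, 19.8 and 17.2 FPKM in untreated Pim1-/- libraries. After LPS it was at 1.02, 1.06 and 1.14 FPKM in WT and 3.63, 3.27 and 3.25 FPKM in Pim1-/- libraries. The Pim1-/- libraries were higher in both conditions, by 2.17-fold and 3.15-fold in the mean. The log2 difference was 1.03 ± 0.06 without treatment (adjusted p = 3.3e-10) and 1.08 ± 0.06 after LPS (adjusted p = 1.7e-10), and both were called. The untreated call rested on replicate 2 of the untreated Pim1-/- libraries, without which the value was 0.98. LPS lowered the mean 7.95-fold in WT and 5.46-fold in Pim1-/- cells, with log2 changes of −2.20 ± 0.06 (adjusted p = 3.6e-15) and −2.15 ± 0.06 (adjusted p = 7.3e-15). The responses differed by 0.05 ± 0.08 (adjusted p = 0.614, 95% interval −0.13 to 0.23), but by 0.47 (adjusted p = 0.00103) with a pseudocount of 0.1 and by −0.31 (adjusted p = 0.00595) after quantile normalization, so no direction is given for this difference.

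Dusp7, the closest relative of Dusp6 by substrate and location, was at 28.3, 29.2 and 29.0 FPKM in untreated WT and 17.5, 17.4 and 18.4 FPKM in untreated Pim1-/- libraries. After LPS it was at 7.47, 6.96 and 7.34 FPKM in WT and 4.12, 3.75 and 3.71 FPKM in Pim1-/- libraries. Here the Pim1-/- libraries were the lower ones in both conditions, by 1.62-fold and 1.88-fold in the mean. The log2 differences of −0.67 ± 0.05 without treatment (adjusted p = 5.9e-09) and −0.77 ± 0.05 after LPS (adjusted p = 9.6e-10) were under 2-fold and not called. LPS lowered the mean 3.97-fold in WT and 4.60-fold in Pim1-/- cells, with log2 changes of −1.85 ± 0.05 (adjusted p = 2.8e-15) and −1.95 ± 0.05 (adjusted p = 2.1e-15). The responses differed by −0.10 ± 0.07 (adjusted p = 0.229, 95% interval −0.24 to 0.05).

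Among the genes for the JNK and p38 phosphatases, Dusp16 followed Dusp1 and Dusp2. It was at 1.78, 1.65 and 1.70 FPKM in untreated WT and 2.18, 2.12 and 2.18 FPKM in untreated Pim1-/- libraries. After LPS it was at 54.7, 53.6 and 51.1 FPKM in WT and 18.1, 17.9 and 18.3 FPKM in Pim1-/- libraries. As with Dusp1, Pim1-/- cells were higher before LPS and lower after it, with no overlap. The mean rose 31.1-fold in WT and 8.38-fold in Pim1-/- cells, and was 2.93-fold higher in WT after LPS. The log2 difference between genotypes was −1.5 ± 0.04 after LPS (adjusted p = 1.8e-13) and 0.22 ± 0.04 without treatment (adjusted p = 3.1e-04). The difference between the responses was −1.72 ± 0.06 (adjusted p = 9.0e-12).

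Dusp8 and Dusp10, the other phosphatases of this class, stayed near or below 1 FPKM. Dusp8 was at 0.132, 0.0695 and 0.108 FPKM in untreated WT, 0.0894, 0.0755 and 0.113 in untreated Pim1-/-, 1.12, 0.938 and 0.899 in LPS-treated WT and 0.902, 0.813 and 0.911 in LPS-treated Pim1-/- libraries. All 6 treated libraries lay above all 6 untreated ones, and the genotypes overlapped in both conditions. The mean was 9.56-fold higher with LPS in WT and 9.45-fold higher in Pim1-/- cells. Tested without the filter on low values, among 16410 genes, the log2 changes were 0.85 ± 0.04 and 0.78 ± 0.04 (adjusted p = 6.3e-09 and 1.8e-08), under the 2-fold line, and with a pseudocount of 0.1, chosen after seeing the data, 2.42 ± 0.14 and 2.34 ± 0.14 (adjusted p = 1.2e-08 and 2.3e-08), which were called. Dusp10 was at 0.698 to 0.851 FPKM in untreated WT, 0.709 to 0.857 in untreated Pim1-/-, 0.782 to 1.14 in LPS-treated WT and 0.703 to 0.848 in LPS-treated Pim1-/- libraries. These ranges overlapped, and no comparison of Dusp10 had an adjusted p under 0.05 without the filter, the lowest being 0.0826 for LPS in WT cells. Dusp10 overlaps 1700056E22Rik on the opposite strand.

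**Figure D3:**
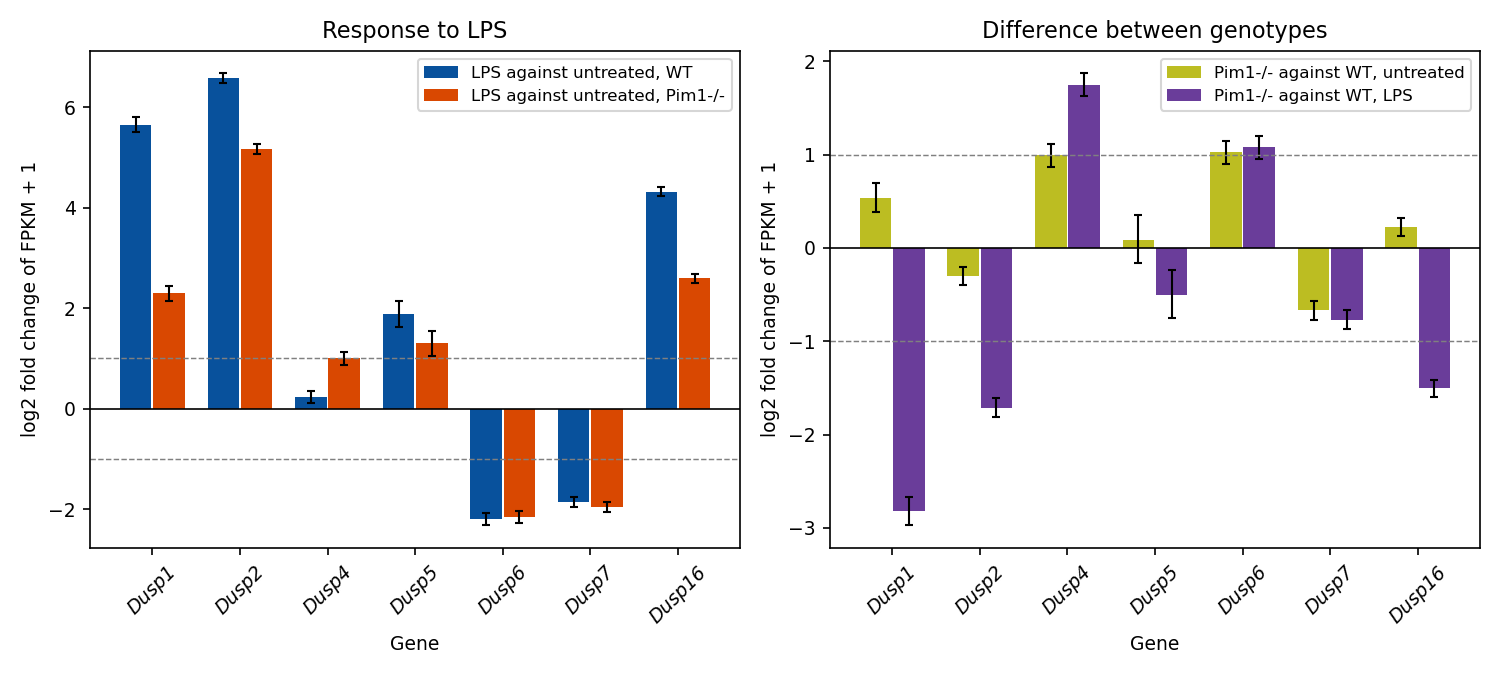
Bars give the log2 fold change of FPKM + 1 of the 7 tested genes, on the left for LPS against no treatment in each genotype and on the right for Pim1-/- against WT in each condition, with 95% intervals from limma and dashed lines at 2-fold. The LPS responses of Dusp1, Dusp2 and Dusp16 were smaller in Pim1-/- cells, and Dusp4 and Dusp6 were higher in Pim1-/- cells in both conditions.

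Counted over the family, LPS in WT cells raised 4 of the 7 tested members (Dusp1, Dusp2, Dusp5 and Dusp16), against 20.1% of all genes tested, and lowered 2 (Dusp6 and Dusp7), against 14.7%. In Pim1-/- cells LPS raised 5, against 14.6%, and lowered 2, against 10.4%. Dusp5 was tested only because its LPS-treated libraries were high, and without it LPS raised 3 of 6 members in WT and 4 of 6 in Pim1-/- cells. The shares over all genes depend on scaling. With each library scaled to one sum, 1242 genes were higher and 4199 lower of 11125 with LPS in WT cells. In Pim1-/- cells 1032 were higher and 3201 lower. The share of all genes lowered in WT cells was then above 2 of 7. That member count comes from the fit without this scaling, so the shares are not like for like. After LPS, Pim1-/- cells had 3 members called lower (Dusp1, Dusp2 and Dusp16), against 5.15% of all genes, and 2 called higher (Dusp4 and Dusp6), against 3.51%. Under the same scaling 611 genes were higher and 377 lower in Pim1-/- cells after LPS, and 415 and 425 in the difference between the responses. Without treatment 1 member was called higher (Dusp6), against 4.40%, and 0 lower, against 3.37%. In the difference between the LPS responses 3 were called lower, against 4.43%, and 0 higher, against 2.24%. At an FDR under 0.1 with no fold threshold, 7 members differed between genotypes after LPS and 6 without treatment, but so did 80.9% and 78.8% of all genes. By that looser rule 7 members changed with LPS in each genotype (91.2% of all genes in WT and 87.2% in Pim1-/- cells) and 5 differed in their response (68.5%). The comparisons after and without LPS share libraries with those of the LPS responses, so these counts are not independent of each other.

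The other genes of the MAP kinase pathway were tallied from lists. After LPS, 0 of 9 tested MAP kinase genes and 0 of 23 genes for upstream kinases (MAP2Ks, MAP3Ks and their adaptors) were called different between Pim1-/- and WT cells, with median log2 differences of −0.35 and −0.25 beside −0.03 over all genes. Of 10 kinases activated by MAP kinases, 1 was called higher, Mknk2, which encodes a kinase of the translation factor eIF4E. It was at 5.55, 6.08 and 6.12 FPKM in Pim1-/- and 2.10, 2.10 and 2.21 FPKM in WT libraries after LPS, a log2 difference of 1.14 ± 0.05 (adjusted p = 9.0e-12). Of 10 tested other Dusp genes and 6 tested other MAP kinase phosphatases, 0 were called in either direction, with medians of 0.07 and −0.29. With a pseudocount of 0.1 the count for other Dusp genes was 4, of which 3 were higher, and without replicate 2 of the LPS-treated WT libraries it was 1. Among the activated kinases, Mapkapk2 lay just under the 2-fold line on the lower side (−0.98 ± 0.05, adjusted p = 4.1e-11). The median of that list was −0.20. Without replicate 3 of the LPS-treated Pim1-/- libraries the activated kinases had 1 higher and 1 lower. These counts stand beside 3.51% of all genes called higher and 5.15% lower. They leave out differences under 2-fold, while 80.9% of all genes had an FDR under 0.1. The MAP kinases ran from −0.81 ± 0.04 for Mapk6 (adjusted p = 2.1e-10) to 0.21 ± 0.07 for Nlk (adjusted p = 0.0084). The upstream kinases and adaptors ran from −0.94 ± 0.05 for Tab2 (adjusted p = 1.1e-10) to 0.21 ± 0.05 for Map2k5 (adjusted p = 9.6e-04).

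The list of ERK feedback genes joined inhibitors of Ras signalling with other genes, among them an ERK-responsive transcription factor gene. Whether each of them acts as feedback in these cells was not tested. Of its 7 tested genes, 1 was called higher and 1 lower after LPS. Rgs2, a regulator of G protein signalling, was at 33.5, 36.5 and 32.4 FPKM in Pim1-/- and 8.07, 9.05 and 9.0 FPKM in WT libraries, a log2 difference of 1.86 ± 0.06 (adjusted p = 1.1e-12). Ier3, an immediate early gene, was at 34.8, 31.5 and 35.2 FPKM in Pim1-/- and 84.2, 74.9 and 78.8 FPKM in WT libraries, a difference of −1.20 ± 0.05 (adjusted p = 1.3e-11). Under quantile normalization the calls for Ier3 and Mknk2 were lost. Genes of this list thus lay on both sides, as did the phosphatases. Without treatment 2 were called higher and 1 lower, led by Etv5, an ERK-responsive transcription factor gene (1.54 ± 0.06, adjusted p = 2.3e-12), and Ier3 (−1.69 ± 0.05, adjusted p = 2.2e-13). Over all genes 4.40% were called higher and 3.37% lower without treatment. The lists of MAP kinases, activated kinases, other Dusp genes and other MAP kinase phosphatases had 0 called. Differences under 2-fold are left out of these counts, while 78.8% of all genes had an FDR under 0.1. The MAP kinases ran from −0.74 ± 0.06 for Mapk7 (adjusted p = 4.2e-08) to 0.32 ± 0.08 for Mapk8 (adjusted p = 0.00172). The activated kinases ran from −0.96 ± 0.04 for Mknk1 (adjusted p = 1.6e-11) to 0.49 ± 0.05 for Rps6ka5 (adjusted p = 3.9e-07). By quantile normalization the activated kinases had 1 lower. Of 23 upstream kinases 1 was called lower without treatment, near the share over all genes. This was Map3k8, which encodes the kinase that couples Toll-like receptors to ERK. It was at 3.36, 4.04 and 3.76 FPKM in Pim1-/- and 8.50, 8.78 and 8.76 FPKM in WT libraries, a difference of −1.04 ± 0.05 (adjusted p = 6.0e-11). The count of upstream kinases called lower was 0 without replicate 1 of the untreated Pim1-/- libraries, 2 without replicate 3 of these or replicate 2 of the untreated WT libraries, 2 by scaling to one sum and 3 by quantile normalization.

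**Figure D4:**
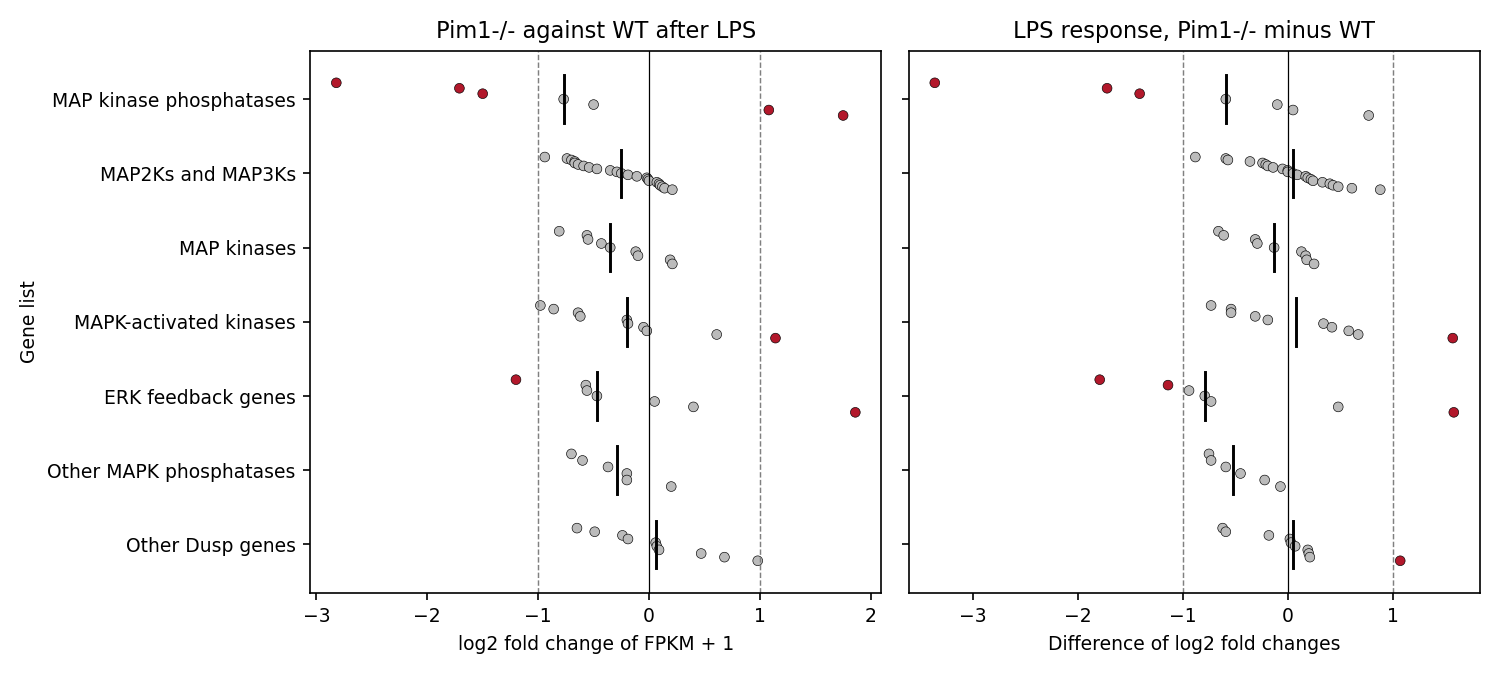
Each point is a tested gene of a list, red where it was called, and the black bar is the list's median. The left panel gives the log2 difference between Pim1-/- and WT cells after LPS and the right panel the difference between their LPS responses, with dashed lines at 2-fold. Dusp1 has the lowest value in both panels, at −2.82 and −3.36.

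With LPS in WT cells, where 20.1% of all genes were called higher and 14.7% lower, 2 of 9 MAP kinase genes were called higher and 1 lower, led by Mapk6, an atypical MAP kinase (2.12 ± 0.04, adjusted p = 1.8e-16), and Mapk7, which encodes ERK5 (−1.39 ± 0.06, adjusted p = 4.3e-12). Of the 23 upstream kinases 5 were higher and 6 lower, led by Map3k8 (3.07 ± 0.05, adjusted p = 9.9e-18) and Map3k1 (−2.35 ± 0.06, adjusted p = 3.0e-15). Of the 10 activated kinases 4 were higher and 2 lower. Mapkapk2, the p38 effector that stabilizes cytokine mRNAs, rose from 116 ± 2.43 to 1362 ± 17.7 FPKM in WT and from 67.1 ± 3.82 to 692 ± 34.2 FPKM in Pim1-/- cells. Mknk2 fell from 70.3 ± 0.551 to 2.14 ± 0.0629 FPKM in WT and from 52.0 ± 2.55 to 5.92 ± 0.318 FPKM in Pim1-/- cells. The 7 feedback genes had 4 higher and 1 lower in WT, led by Spred1, an inhibitor of Ras signalling (2.80 ± 0.04, adjusted p = 4.3e-18), and Rgs2 (−2.32 ± 0.06, adjusted p = 6.7e-15). The 6 other MAP kinase phosphatases had 3 higher and 1 lower, led by Ppm1b (1.60 ± 0.05, adjusted p = 1.2e-14) and Ptpn7 (−1.64 ± 0.07, adjusted p = 8.6e-13). The 10 other Dusp genes had 2 higher and 3 lower, led by Dusp28 (1.62 ± 0.06, adjusted p = 1.7e-13) and Dusp22 (−1.47 ± 0.07, adjusted p = 4.9e-12). With each library scaled to one sum fewer genes of each list were called higher. There were 0 higher and 2 lower other MAP kinase phosphatases, 2 and 4 activated kinases, and 4 and 10 upstream kinases. The MAP kinases had 1 and 3, the other Dusp genes 1 and 6 of 11 tested, and the feedback genes 3 and 2 of 8 tested. Mapk11, Dusp14 and Phlda1, counted as higher, were tested only because their LPS-treated libraries were high, and Map2k6 and Dusp18, counted as lower, only because their untreated libraries were.

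In Pim1-/- cells, where 14.6% of all genes were called higher and 10.4% lower with LPS, 1 of 9 MAP kinase genes was higher and 1 lower, namely Mapk6 (1.46 ± 0.04, adjusted p = 3.0e-14) and Mapk7 (−1.20 ± 0.06, adjusted p = 3.8e-11). Both shares, and those of the upstream kinases with 4 of 23 higher and 3 lower, were near the shares over all genes. The upstream kinases were led by Map3k8 (3.47 ± 0.05, adjusted p = 3.1e-18) and by Map2k6, an activator of p38 (−1.52 ± 0.07, adjusted p = 3.1e-12), which passed the filter through its untreated libraries alone. The 10 activated kinases had 4 higher and 2 lower, and the 7 feedback genes 2 higher and 1 lower, led by Ier3 (3.25 ± 0.05, adjusted p = 9.7e-18) and Etv5 (−1.33 ± 0.06, adjusted p = 3.6e-12). The 6 other MAP kinase phosphatases had 0 higher and 1 lower, Ptpn7 (−2.09 ± 0.07, adjusted p = 5.6e-14). The 10 other Dusp genes had 1 higher, Dusp28 (1.03 ± 0.06, adjusted p = 8.8e-11), and 1 lower, Dusp3 (−1.27 ± 0.05, adjusted p = 5.6e-13). Without replicate 1 of the LPS-treated Pim1-/- libraries 0 were higher, and with each library scaled to one sum 0 of 11 tested were higher and 6 lower.

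When the LPS responses were compared between the genotypes, where 2.24% of all genes were called higher and 4.43% lower, 0 of 9 MAP kinase genes, 0 of 23 upstream kinases and 0 of 6 other MAP kinase phosphatases were called, as were 1 of 10 activated kinases, 1 of 10 other Dusp genes and 3 of 7 feedback genes (1 higher and 2 lower). At these list sizes 0 or 1 is near the share over all genes. The counts leave out differences under 2-fold, while 68.5% of all genes had an FDR under 0.1. In the lists with 0 called, values ran from −0.88 ± 0.08 for Map2k3 (adjusted p = 9.9e-08) to 0.88 ± 0.09 for Map3k1 (adjusted p = 4.1e-07). Mknk2 had a smaller fall in Pim1-/- cells (1.57 ± 0.07, adjusted p = 5.3e-11), as did Rgs2 (1.58 ± 0.09, adjusted p = 1.3e-09) and Dusp22 (1.07 ± 0.10, adjusted p = 1.5e-07), the call for which was lost without replicate 1 of the LPS-treated WT libraries. Spred2, an inhibitor of Ras signalling related to Spred1, rose in WT from 1.17 ± 0.129 to 3.82 ± 0.337 FPKM and went from 4.08 ± 0.0864 to 2.27 ± 0.125 FPKM in Pim1-/- cells, a difference in response of −1.79 ± 0.09 (adjusted p = 2.4e-10). The median difference of the 7 feedback genes was −0.79, beside −0.59 for the 7 phosphatases, −0.52 for the 6 other MAP kinase phosphatases, −0.13 for the MAP kinases, 0.08 for the activated kinases and 0.05 for the other Dusp genes and the upstream kinases. Dusp9, the remaining cytoplasmic MAP kinase phosphatase, was counted with the other Dusp genes and is named here after its values were seen. It passed the filter only through its untreated Pim1-/- libraries, so its values are a description. It was at 1.37 ± 0.0818 FPKM in Pim1-/- against 0.800 ± 0.0815 FPKM in WT cells untreated and 0.513 ± 0.0545 against 0.0957 ± 0.0408 FPKM after LPS.

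The genes whose log2(FPKM + 1) followed a member most closely over the 12 libraries were found by Pearson's r, which here mostly reflects the shared group means. For Dusp1 these were Ube2k (r = 0.9976), Gmppb (0.9971) and Sgcb (0.9964), and 882 genes exceeded 0.95. For Dusp2 they were Xrn2 (0.9998), Rab11fip1 (0.9997) and Rab22a (0.9996), and for Dusp16 Nxpe3 (0.9988), Rexo4 (0.9988) and Nupr1 (0.9987), with 1723 and 1619 genes over 0.95. Dusp4 had the fewest companions, with 55 genes over 0.95, led by Chac1 (0.9889), Tars (0.9871) and Adss (0.9870). For Dusp6 they were Pgm2l1 (0.9979), Asrgl1 (0.9964) and Dnmt1 (0.9952), for Dusp7 Arhgef10l (0.9985), Snx8 (0.9981) and 5031439G07Rik (0.9960), and for Dusp5 Ptrf (0.9906), Syne2 (0.9905) and Il20rb (0.9900).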

How the data were processed

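RNA from BMDMs was made into stranded mRNA libraries and sequenced by the authors. They mapped the reads with TopHat (2.0.13) and computed expression with Cuffdiff (2.2.1), and the submitters' processing notes also list bcl2fastq 2.20.0.422, cutadapt 1.18 and mm10, whereas the methods name a rat genome (rn5). The gene symbols are mouse symbols. The deposited values carry no unit and were read as FPKM, computed by the authors, with library normalization not given in the sources used here. Depth was estimated from values up to 0.3 FPKM, of which 54.7% to 66.0% per library lay within 0.05 of a whole multiple of 1 fragment (chance gives 10%). Since these steps are only partly whole, no counts were rebuilt. The FPKM sums were 452511 to 489710 in untreated and 713307 to 849323 in LPS-treated libraries.

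Genes were kept where 3 or more libraries reached 1 FPKM, and these 10581 were fitted as log2(FPKM + 1) with limma 3.58.1 (R 4.3.3), with 4 group means and a mean-variance trend, in 5 contrasts. P-values were adjusted over all genes tested. The test was checked on simulated data. Tables were written in Python 3.11.15 (numpy 2.4.6 and pandas 2.3.3), and plots with matplotlib 3.10.9. Gene overlaps came from GENCODE M21 (GRCm38), promoters from RefSeq (GRCm38.p6).

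The members and gene lists were chosen with earlier results of these data known. Genes named are all members, Pim1 and the 3 genes most like each tested member. From each pathway list they are the called genes with the largest rise and fall in each comparison. Some uncalled genes are also named, as the lowest or highest of their list, after their values were seen. Symbols not found directly were matched through older ones (Map3k20 as Zak and Adgre1 as Emr1), and Ly6g and Ighm had no row. Same-numbered libraries deviated together between genotypes without treatment (r = 0.33, 0.37 and 0.46 over 3646 genes) and between conditions in Pim1-/- cells (0.43, 0.54 and 0.68). For LPS-treated WT cells r was 0.02, 0.37 and 0.19 with LPS-treated Pim1-/- cells and −0.1, 0.14 and 0.19 with untreated WT cells. The labels give no pairing, and whether equal numbers stand for paired libraries was not tested. Alternatives changed the pseudocount, filter, scaling, libraries fitted, replicate block, trend, thresholds and libraries left out.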

Additional observations from a re-analysis of the deposited data

Results flagged for a closer look

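The LPS responses of 3 members differed between the genotypes by a test of the difference itself, in limma over all genes tested. For Dusp1 the response in Pim1-/- cells minus that in WT cells was −3.36 on the log2 scale, with values from −3.57 to −2.98 over the settings that kept all libraries. For Dusp16 it was −1.72, between −1.87 and −1.39. For Dusp2 it was −1.41, between −1.42 and −1.06. In each gene all 3 LPS-treated Pim1-/- libraries lay below all 3 LPS-treated WT libraries. The part of the lower macrophage markers and higher cell cycle genes of Pim1-/- cells in these values was not tested.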

How the results depend on the processing

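Of the fold changes of single members, 324 values under other settings and 415 with a library left out kept direction and call, 6 reversed, 4 gained a call and 9 lost one. Between untreated genotypes 1 member was called, but 6 at an FDR under 0.05 or under 0.1 with no fold threshold, and 2 with a pseudocount of 0.1, quantile normalization, scaling of each library to one sum (TPM), upper-quartile scaling or limma's treat against 1.5-fold. Dusp4 had 1.09, 1.17, 1.10 and 1.01 under the first 4 of these. Leaving out 1 library gave 0 to 1 members there, 5 in the genotype comparison after LPS, 6 for LPS in WT, 6 to 7 for LPS in Pim1-/- cells and 3 for the difference in response, for which an FDR under 0.05 or 0.1 alone gave 5. Reversed values were those of Dusp4 with LPS in WT cells (−0.50 by TPM and −0.18 by upper-quartile scaling) and, in the difference in response, of Dusp6 (−0.31 by quantile normalization) and Dusp7 (0.02 by quantile normalization, 0.01 by TPM and 0.06 by upper-quartile scaling). Dusp6 after LPS fell under the 2-fold line by quantile normalization (0.92), as did Dusp4 with LPS in Pim1-/- cells (0.76, and 0.38 by TPM and 0.72 by upper-quartile scaling). TPM scaling shifted all genes by a median of −0.77 with LPS in WT, −0.63 in Pim1-/- cells and 0.19 between genotypes after LPS, and upper-quartile scaling by −0.42, −0.27 and 0.16. Otherwise the causes were not tested. With the replicate block the counts were 5 members after LPS, 1 without treatment, 6 and 7 for LPS in WT and Pim1-/- cells and 3 for the difference, and it changed no call. Counts in the pathway lists moved by over 1.5 times in 8 of 30 with a pseudocount of 0.1, 8 by TPM, 6 by quantile normalization, 4 by upper-quartile scaling, 2 with the 5 FPKM filter and 1 in each of 7 settings that left out a library. A fit restricted to the compared groups could not be made for the difference in response, which needs all groups. Few fragments limit Dusp5, Dusp8 and Dusp10.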
